A study of Mus musculus with 6 samples.

Results

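The aminoacyl-tRNA synthetases of mouse embryonic fibroblasts (MEFs) were followed in 6 RNA-seq libraries, with the enzymes of the cytosol set against those of the mitochondrion. Members were the genes whose symbol is that of a synthetase and that had at least 10 counts in every library. All 37 symbols matched by name met this minimum, out of 55291 genes listed, and the lowest count of a member in any library was 301. Symbols ending in 2 were taken as mitochondrial, which gave 17 genes, and the other 20 as cytosolic. Gars and Kars, the glycyl- and lysyl-tRNA synthetases, serve both compartments from 1 gene each and are counted here as cytosolic.

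All cells were wild-type (WT) MEFs with no allele altered. They received vehicle, MASM7 at 1 μM for 6 h or MFI8 at 20 μM for 6 h. Each of these 3 groups had 2 libraries, described as independent biological replicates. MASM7 is a small molecule described as an activator of mitofusins, the GTPases that fuse the outer mitochondrial membranes of neighbouring mitochondria, and MFI8 is described as an inhibitor of them. The vehicle's duration was not given in the sources used here. The compounds were given at different concentrations, so compound and concentration cannot be told apart.

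Each synthetase joins an amino acid to its matching tRNA, which is the step that sets the genetic code at translation. Cytosolic and mitochondrial ribosomes draw on separate tRNA pools, and most amino acids therefore have 2 nuclear genes, whose mitochondrial products are made in the cytosol and imported. Several cytosolic enzymes sit in a multi-synthetase complex held by the scaffold proteins AIMP1, AIMP2 and EEF1E1. Many cytosolic synthetase genes are also known targets of ATF4, the transcription factor of the integrated stress response, which binds composite sites that carry the letters TGATGNAA. Glutamine has no mitochondrial synthetase, since its mitochondrial tRNA is charged with glutamate and then amidated, and cytosolic proline is charged by Eprs, which also charges glutamate.

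Promoter sequence was taken from RefSeq (GRCm38.p6), from 250 bases before to 50 bases after the start site, and was found for 27 of the 37 members. Among those not matched were Cars, Hars, Lars, Nars, Rars, Vars, Wars, Hars2 and Pars2. The letters TGATGNAA, read on both strands, stood in the windows of 5 of 13 cytosolic members (38.5%), in 0 of 15 windows of 14 mitochondrial members, and in 3.97% of all 32851 windows. These stretches are shown because, of the 3 motifs counted, this one differed most between the windows of the enzyme groups. The capitals mark the match, and the number is the place of its first base counted from the start site, which is +1.

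Aars, first match at -112, chr8:111033710-111033757, plus strand: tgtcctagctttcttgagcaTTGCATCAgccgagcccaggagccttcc
Aars, second match at +10, chr8:111033831-111033878, plus strand: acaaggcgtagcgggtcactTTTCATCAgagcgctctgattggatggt
Gars, match at -30, chr6:55037951-55037998, plus strand: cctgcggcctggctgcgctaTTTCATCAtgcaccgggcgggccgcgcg
Iars, match at +8, chr13:49682117-49682164, plus strand: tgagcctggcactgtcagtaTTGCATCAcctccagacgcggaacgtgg
Tars, match at -15, chr15:11399646-11399693, minus strand: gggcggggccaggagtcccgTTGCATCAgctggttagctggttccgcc
Yars, match at +4, chr4:129189886-129189933, plus strand: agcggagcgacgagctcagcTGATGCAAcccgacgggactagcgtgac

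Only Yars carried the letters in the direction of transcription, and the others carried their reverse complement. The matches of Iars, Yars and the second of Aars lay after the start site. A match of letters is a description and not a bound site. A further pair of motifs was counted in the same windows on both strands. The NRF1-type letters GCGCANGCG were in 23.1% of cytosolic and 26.7% of mitochondrial windows, against 6.25% of all windows. The E-box CACGTG was in 30.8% of cytosolic and 6.67% of mitochondrial windows, against 7.15% of all, so that it was the mitochondrial share that lay near the level of all promoters. These shares rest on 13 and 15 windows.

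The libraries held between 22791792 and 30677751 counts, of which the 37 synthetases took 0.659% to 0.750%. The 7 fibroblast markers summed to 4003 to 5050 TPM, whereas 3 epithelial markers reached at most 0.486 TPM and 3 endothelial markers at most 0.428 TPM. The fibroblast markers were uneven, with Vim the highest, Pdgfrb at 11.6 to 19.5 TPM and Thy1 at only 0.283 to 0.751 TPM. The 3 immune markers summed to 8.91 to 11.9 TPM and 3 skeletal muscle markers to 0.540 to 1.53 TPM, each list with 1 gene at 0 in all libraries. Cd68 carried the immune list. Of 3 neural markers 2 were at 0, and Tubb3 carried the list at 47.1 to 68.4 TPM. In bulk RNA, fewer cells of a type and less RNA per cell cannot be told apart.

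Cytosolic synthetases were much more abundant than mitochondrial ones in every library. On the TPM scale, which is per length of transcript, the median cytosolic level was between 187 and 235 and the median mitochondrial level between 16.8 and 18.1 over the 6 libraries. The ratio of the median levels over all libraries was 12.1. It was 9.54 when levels were taken as CPM divided by transcript length, and 10.3 without Gars and Kars. The summed level was 4075 to 4729 TPM for the cytosolic and 542 to 599 TPM for the mitochondrial group.

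The most abundant cytosolic member was Nars, the asparaginyl-tRNA synthetase, with a mean level of 459 TPM and a range over the libraries of 408 to 532. Gars followed with 441 TPM (401 to 484) and Vars, for valine, with 367 TPM (331 to 387). The ranges of Nars and Gars overlapped, and so did those of Vars and Hars, whose mean was 367 TPM as well. Kars stood at 343 TPM (329 to 363). The 3 least abundant cytosolic members were Eprs with 65.5 TPM (62.2 to 70.4), Cars, for cysteine, with 68.7 TPM (61.1 to 77.7), and Wars, for tryptophan, with 77.3 TPM (73.8 to 80.1). Their ranges also overlapped from neighbour to neighbour.

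Among mitochondrial members Lars2, the leucyl-tRNA synthetase on chromosome 9, stood apart with a mean level of 186 TPM. Its level was 195 and 172 TPM in the vehicle libraries, 211 and 168 TPM with MASM7, and 161 and 210 TPM with MFI8. The 3 groups overlapped, and Lars2 was the member with the widest standard error in the fit, 0.13 on the log2 scale. The next levels were those of Yars2, for tyrosine, with 54.6 TPM (51.1 to 59.5) and Tars2, for threonine, with 49.96 TPM (44.0 to 52.4). The lowest were Nars2 with 7.51 TPM (6.35 to 8.09), Fars2, for phenylalanine, with 8.07 TPM (7.40 to 9.17), and Ears2, for glutamate, with 10.5 TPM (9.55 to 11.1). Without Lars2 the highest mitochondrial level lay below the lowest cytosolic level in each of the 6 libraries.

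**Figure D1:**
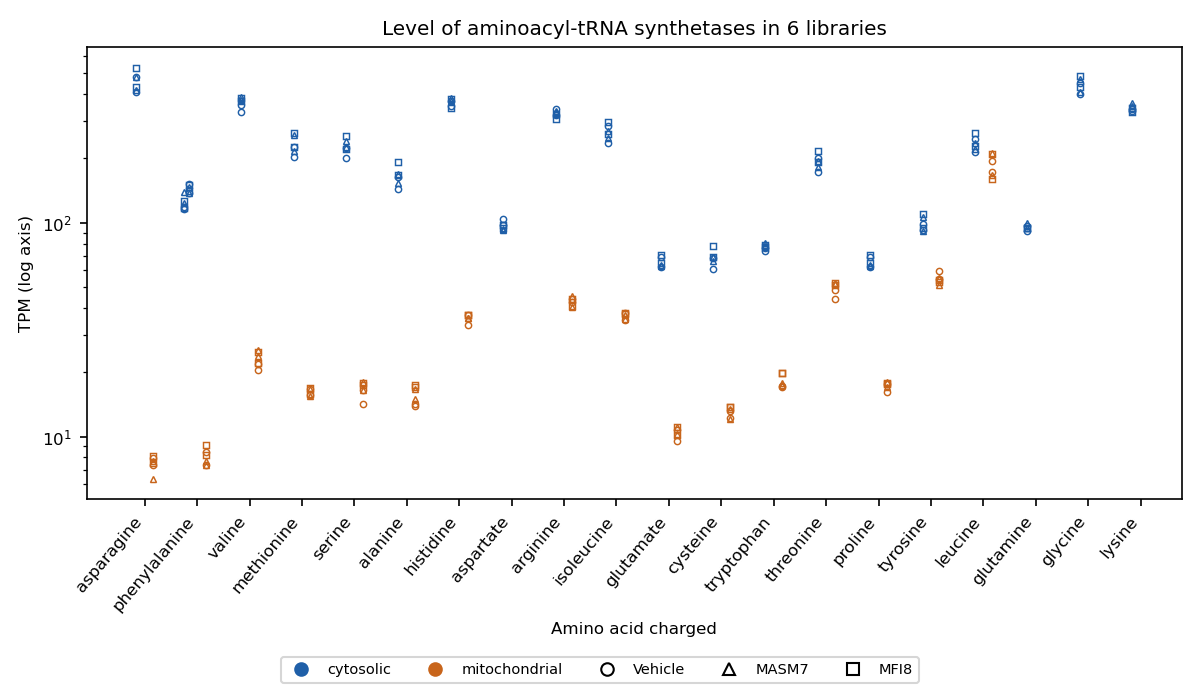
Level in TPM (log axis) of 36 synthetases by the amino acid charged, 1 point per library, with cytosolic enzymes in blue, mitochondrial enzymes in orange and the treatment given by the marker shape. Eprs is drawn for both glutamate and proline. The cytosolic points lie above the mitochondrial points for every amino acid with both drawn, with the widest gap for asparagine (mean ratio 61.5) and the narrowest for leucine (1.28).

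For 17 amino acids the data held both a cytosolic and a mitochondrial enzyme, with Eprs set against both Ears2 and Pars2, and in 17 of 17 the cytosolic level was higher in all 6 libraries. The median of the 17 ratios was between 6.97 and 7.80 in a library. The spread among amino acids was far wider than among libraries. Asparagine had the highest ratio, with Nars at 55.3 and 60.6 times Nars2 in the vehicle libraries, 54.2 and 76.1 times in those with MASM7, and 57.4 and 65.7 times in those with MFI8. The mean ratio was 16.8 for phenylalanine, taken from the mean of the subunits Farsa and Farsb over Fars2, and 15.9 for valine. The lowest ratios were those of leucine with a mean of 1.28 (1.05 to 1.43 over the libraries), tyrosine with 1.82 (1.66 to 2.03), proline with 3.76 (3.49 to 4.29) and threonine with 3.88 (3.54 to 4.55). The ranges of proline and threonine overlapped. The order of the amino acids describes transcript levels and carries no test, since the enzymes are not replicates.

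The comparison of MFI8 with vehicle asked whether the synthetases moved with inhibition of mitochondrial fusion. With low counts filtered and no replicate block, no synthetase passed the test. Of 14290 genes tested, 0 had an adjusted p under 0.05 (0%) in the quasi-likelihood test of edgeR after Benjamini-Hochberg adjustment, against 1409 at an unadjusted p under 0.05. The DESeq2 Wald test gave 49 genes and limma on log2(TPM + 1) gave 8, with 0 synthetases in either. With the library number as a replicate block, edgeR gave 720 genes, among them the 2 cytosolic synthetases Aars and Mars1. With the block and offsets for GC content and length it gave 587 genes, with Mars1 and Tars but not Aars among them. Without the filter on low counts and without the block it gave 256 genes, among them Aars. The median log2 fold change was 0.066 for cytosolic and 0.045 for mitochondrial members, beside 0.0027 for all genes. The cytosolic median was -0.023 without the MFI8 library numbered 2, -0.0046 without the vehicle library numbered 1 and 0.14 without the MFI8 library numbered 1. The mitochondrial median was 0.096 without the vehicle library numbered 1. The difference between these medians, 0.020, was within the pooled SD of 0.10 that it had between libraries of the same group. It was -0.059 without the MFI8 library numbered 2 and -0.10 without the vehicle library numbered 1. Within libraries of the same number, which was looked at after the data were seen, the mitochondrial median was the higher one, at 0.052 against 0.025 for number 1 and 0.14 against 0.075 for number 2. Among cytosolic members 14 read higher and 6 lower, and among mitochondrial members 12 read higher and 5 lower. Of the 14290 genes tested, 7239 read higher.

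At an unadjusted p under 0.05, 1 cytosolic and 2 mitochondrial members were higher with MFI8, where 5.21% of all genes were, and 0 members were lower, where 4.65% of all genes were. Both MFI8 libraries were above both vehicle libraries for 3 cytosolic and 6 mitochondrial members, against 20.9% of all genes. Both were below for 2 cytosolic and 1 mitochondrial member, against 19.3% of all genes. These shares were 15.0% and 35.3% of the groups for the higher members.

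Aars, the alanyl-tRNA synthetase (chromosome 8, 111033144 to 111057664, plus strand), had 379 and 425 CPM with vehicle and 430 and 496 CPM with MFI8. Both MFI8 libraries were above both vehicle libraries, the lower of them by little. The log2 fold change was 0.20 (SE 0.082, edgeR adjusted p = 0.455). It was 0.12 without the vehicle library numbered 1, 0.10 without the MFI8 library numbered 2 and 0.11 with offsets for GC content and length. Aars shared 14.29% of its exon bases with Exosc6 on the same strand.

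Its mitochondrial counterpart Aars2 (chromosome 17, 45506841 to 45520843) had 18.9 and 19.0 CPM with vehicle and 22.5 and 23.1 CPM with MFI8. These groups were well apart, and the MASM7 libraries, at 20.4 and 22.9 CPM, overlapped those with MFI8. The log2 fold change with MFI8 was 0.27 (SE 0.09, edgeR adjusted p = 0.412), and 0.17 with the offsets for GC content and length. Wars2, which charges mitochondrial tryptophan tRNA (chromosome 3, 99141068 to 99239186), had 28.9 CPM in both vehicle libraries and 32.8 CPM in both MFI8 libraries. This was a log2 fold change of 0.18 (SE 0.07, edgeR adjusted p = 0.448), with groups apart and libraries nearly equal within them.

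The other cytosolic values at the top were those of Mars1, for methionine, with a log2 fold change of 0.16 (SE 0.10) and Cars with 0.15 (SE 0.072), both with overlapping libraries. Mars1 shares 1.99% of its exon bases, on the opposite strand, with Ddit3. At the bottom were Dars, for aspartate, with -0.10 (SE 0.054), Rars, for arginine, with -0.094 (SE 0.053), and Kars with -0.032 (SE 0.05). Dars had 121 and 128 CPM with vehicle, and 115 and 118 CPM with MFI8, so that both MFI8 libraries were below. Dars, Rars and Kars all belong to the multi-synthetase complex.

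Among mitochondrial members Sars2, for serine, followed with a log2 fold change of 0.17 (SE 0.11). The lowest were Yars2 with -0.13 (SE 0.07), Rars2 with -0.059 (SE 0.082) and Mars2 with -0.025 (SE 0.069). Yars2 was the only mitochondrial member with both MFI8 libraries below both vehicle libraries, at 46.1 and 47.2 CPM against 49.1 and 52.7 CPM. Lars2 had -0.0096 (SE 0.13) and Gars 0.081 (SE 0.082). None of these had an adjusted p under 0.05.

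The cytosolic members were also described by whether they are listed as ATF4 targets, and the difference between the listed and the other members was not tested. This list was chosen with earlier results of these data known, so the split is a description only. With MFI8 the 13 listed members all had a log2 fold change above 0, from 0.013 for Eprs to 0.20 for Aars, with a median of 0.088. Of all 14290 genes tested 7239 were above 0. Of the 7 members not listed, 1 was above 0 (Farsa, 0.033) and 6 were below, with a median of -0.028. Both MFI8 libraries were above both vehicle libraries for 3 of the 13 (23.1%), against 20.9% of all genes. Without the MFI8 library numbered 2, 7 of the 13 were above 0 and their median was 0.013. Without the vehicle library numbered 1 it was 0.020, with 9 above 0, and without the vehicle library numbered 2 it was 0.19. Of the 7 not listed, 4 were above 0 without the vehicle library numbered 2 and 4 without the MFI8 library numbered 1. Their median was 0.0039 without the vehicle library numbered 2. It was -0.065 without the MFI8 library numbered 2, where 0 of them were above 0.

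Compared within libraries of the same number, which was looked at after the data were seen, all 13 listed members were higher with MFI8 in either pair, as were 7104 and 7372 of the 14290 genes tested. The median difference was 0.076 in the libraries numbered 1 and 0.12 in those numbered 2 on the log2 scale. For the 7 others, 2 were higher in each pair, with medians of -0.055 and -0.041. The 5 members with a printed match were among the 13 listed, and their fold changes with MFI8 ran from 0.069 for Iars and 0.074 for Yars through 0.081 for Gars and 0.10 for Tars to 0.20 for Aars. The listed members with a window and no match were Eprs at 0.013, Sars at 0.13 and Mars1 at 0.16. Members with and without a match thus overlapped, and the remaining listed members had no window. Iars shares 49.9% of its longest transcript, at up to 96.8% identity, with Gm4849, which had 7 to 14 counts in a library.

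Genes of the integrated stress response itself differed more at their median than any single synthetase did. Of 8 listed genes, 7 were higher with MFI8 and 6 of them (75%) at an unadjusted p under 0.05, where 5.21% of all genes were, with a median log2 fold change of 0.61. Atf4 had 415 and 436 CPM with vehicle and 478 and 510 CPM with MFI8, a log2 fold change of 0.22 (SE 0.064, edgeR adjusted p = 0.361). Ddit3, which encodes CHOP, had 12.1 and 11.2 CPM with vehicle and 17.5 and 21.3 CPM with MFI8, a log2 fold change of 0.74 (SE 0.12, edgeR adjusted p = 0.0924). Chac1, a glutathione-degrading enzyme and ATF4 target, had 13.2 and 14.5 CPM against 21.4 and 40.2 CPM, so that the MFI8 libraries differed widely. Asns, the asparagine synthetase, overlapped at 0.19 (SE 0.12), and Psat1 of serine synthesis was at -0.0017 (SE 0.068).

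**Figure D2:**
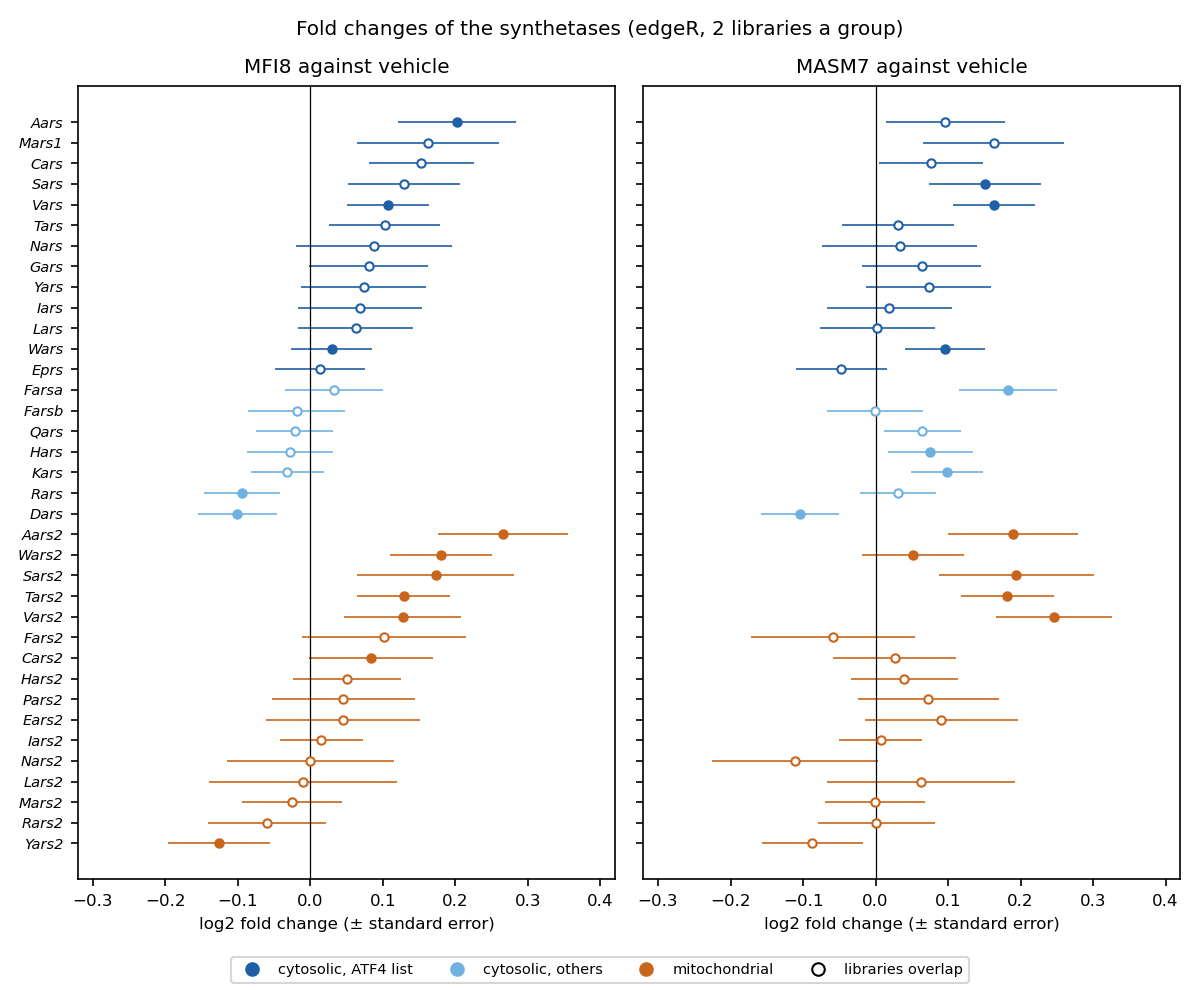
log2 fold change with its standard error from edgeR for 36 synthetases, MFI8 against vehicle on the left and MASM7 against vehicle on the right, coloured by group of enzymes. Filled points are members whose 2 treated libraries both lie on 1 side of both vehicle libraries and open points those that overlap. With MFI8 the 13 cytosolic members listed as ATF4 targets all lie above 0 and 6 of the 7 others below it. The list was chosen with earlier results of these data known, and the split was not tested.

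With MASM7 the question was the same for activation of fusion, and without a replicate block no synthetase passed the test. Of 14290 genes 0 had an adjusted p under 0.05 (0%) in edgeR, with 1458 at an unadjusted p under 0.05, 2 by DESeq2 and 14 by limma, and 0 synthetases in either. With the replicate block edgeR gave 554 genes, among them the 4 cytosolic synthetases Farsa, Mars1, Sars and Vars and the 2 mitochondrial ones Tars2 and Vars2. With the block and offsets for GC content and length it gave 155 genes, with Farsa alone of these. The comparison shares its vehicle libraries with that of MFI8. The median log2 fold change was 0.069 for cytosolic and 0.039 for mitochondrial members, beside 0.00067 for all genes. The cytosolic median was 0.0092 without the vehicle library numbered 1, 0.022 without the MASM7 library numbered 2, and 0.11 without either of the others of these groups. The mitochondrial median was 0.0083 without the vehicle library numbered 2. The difference between these medians, 0.029, was again within the pooled SD of 0.10, and it was -0.042 without the vehicle library numbered 1 and -0.015 without the MASM7 library numbered 2. Within libraries of the same number the cytosolic median was the higher one, at 0.074 against 0.033 for number 1 and 0.073 against 0.065 for number 2. With offsets for GC content and length the difference was -0.011. Among cytosolic members 17 read higher and 3 lower, and among mitochondrial members 12 higher and 5 lower. Of the 14290 genes tested, 7163 read higher.

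At an unadjusted p under 0.05, 2 members of each group were higher with MASM7, where 5.32% of all genes were, and 0 were lower, where 4.88% of all genes were. Both MASM7 libraries were above both vehicle libraries for 6 cytosolic and 5 mitochondrial members, against 21.2% of all genes. Both were below for 1 cytosolic member, Dars, and 0 mitochondrial members, against 21.6% of all genes.

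Farsa, the catalytic subunit for phenylalanine (chromosome 8, 84856989 to 84869257), had 150 and 151 CPM with vehicle and 160 and 181 CPM with MASM7. Both MASM7 libraries were above, and the distance came mostly from the library numbered 2. Its log2 fold change was 0.18 (SE 0.067, edgeR adjusted p = 0.476), and 0.092 without that library. Farsb, which encodes the partner subunit of the same enzyme, was at -0.0014 (SE 0.066), with overlapping libraries.

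Vars (chromosome 17, 35000987 to 35016322) had 570 and 521 CPM with vehicle and 600 and 622 CPM with MASM7. Its log2 fold change was 0.16 (SE 0.056, edgeR adjusted p = 0.473), with groups apart. It was 0.10 without the vehicle library numbered 2 and 0.024 with offsets for GC content and length. Vars transcripts have a GC content of 60.9%, the highest of the members.

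Vars2, the mitochondrial counterpart (chromosome 17, 35655634 to 35667592), had 31.8 and 33.4 CPM with vehicle and 37.3 and 40.0 CPM with MASM7. The log2 fold change was 0.25 (SE 0.08, edgeR adjusted p = 0.473), and 0.13 with the same offsets. Tars2 (chromosome 3, 95739976 to 95760206) had 96.1 and 85.7 CPM with vehicle and 102 and 104 CPM with MASM7. Both MASM7 libraries were above both vehicle libraries, which themselves differed more than the MASM7 libraries did. The log2 fold change was 0.18 (SE 0.064, edgeR adjusted p = 0.473), and 0.10 without the vehicle library numbered 2.

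Of the other values at the ends, Mars1 was at 0.16 (SE 0.10), Sars2 at 0.19 (SE 0.11) and Aars2 at 0.19 (SE 0.09). The lowest cytosolic values were -0.10 (SE 0.054) for Dars and -0.047 (SE 0.062) for Eprs, beside Farsb. Among the lowest mitochondrial values were -0.11 (SE 0.11) for Nars2 and -0.087 (SE 0.07) for Yars2, both with overlapping libraries. Gars was at 0.064 (SE 0.082), Kars at 0.10 (SE 0.05) and Lars2 at 0.062 (SE 0.13).

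With MASM7, in the fit of all libraries, the members listed as ATF4 targets and the others did not part in sign as they did with MFI8. This contrast between the compounds was not tested, and the parting with MFI8 changed when single libraries were left out. Of the 13 listed, 12 were above 0, with a median of 0.074, and of the 7 others 5 were above 0, with a median of 0.064. The median of the 7 others was 0.027 without the MASM7 library numbered 2 and 0.10 without the MASM7 library numbered 1. The number above 0 among the 13 was 7 without the vehicle library numbered 1 and 6 without the MASM7 library numbered 2, where their median was -0.020. The median of the 13 was 0.14 without the vehicle library numbered 2. All 8 genes of the integrated stress response were above 0, as were 7163 of the 14290 genes tested, with a median of 0.23. Of the 8, 1 (12.5%) was higher at an unadjusted p under 0.05, against 5.32% of all genes.

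Between the compounds, whose concentrations differed, 0 genes had an adjusted p under 0.05 (0%) in edgeR, with 1026 at an unadjusted p under 0.05, 27 by DESeq2 and 13 by limma, and 0 synthetases in either. With the replicate block edgeR gave 439 genes and 0 synthetases, and with the block and offsets for GC content and length 695 genes, among them Farsa, Kars and Rars. The median log2 difference, MFI8 minus MASM7, was -0.00027 for cytosolic and -0.021 for mitochondrial members. At an unadjusted p under 0.05, 0 members were higher with MFI8, where 4.23% of all genes were. Kars, at -0.13 (SE 0.05), and Rars, at -0.12 (SE 0.052), were lower, where 2.95% of all genes were. Both MFI8 libraries were above both MASM7 libraries for 0 cytosolic and 3 mitochondrial members, and below for 7 cytosolic and 1 mitochondrial member, against 19.6% of all genes in the first direction and 19.6% in the second.

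Of the 7 cytosolic members below, 5 are not listed as ATF4 targets, namely Farsa, Hars, Kars, Qars and Rars. The median over the 7 members not listed was -0.10 and over the 13 listed 0.050. For those not listed it was -0.16 without the MFI8 library numbered 2 and -0.058 without the MASM7 library numbered 2. The listed median was -0.066 without the MFI8 library numbered 2, and the number above 0 went from 9 to 2. It was -0.048 without the MASM7 library numbered 1, with 5 above 0.

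The widest regular difference in the cytosolic group was between the libraries within a group. The library numbered 2 was above the library numbered 1 in all 3 groups for 17 of 20 cytosolic members (85.0%), for 5 of 17 mitochondrial members (29.4%) and for 20.5% of all genes tested. The exceptions in the cytosolic group were Dars, Qars and Vars, each with 1 group in the other direction. On the log2 CPM scale the median difference of the cytosolic members was 0.14 between the vehicle libraries, 0.10 between the MASM7 and 0.14 between the MFI8 libraries. For mitochondrial members it was -1.1e-05, 0.035 and 0.016. The counts of 17 and 5 were the same with library size alone, with DESeq2 size factors and on the TPM scale, which were scalings chosen after the data were seen.

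Nars had the largest mean difference, 0.25, at 506 and 591 CPM in the vehicle libraries, 520 and 603 CPM in those with MASM7, and 523 and 643 CPM in those with MFI8. The libraries numbered 2 were all above those numbered 1, whatever the treatment. Mars1 followed with 0.21, Iars with 0.18, Gars with 0.17 and Aars with 0.17. Lars2 went both ways, with differences of -0.20, -0.33 and 0.38 in vehicle, MASM7 and MFI8. Of the members with the difference in all 3 groups, 12 were on the ATF4 list of 13 and 5 among the 7 others.

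The integrated stress response genes differed in the same direction, with 7 of 8 above in all 3 groups and medians of 0.19, 0.25 and 0.33. Of 84 cytosolic ribosomal protein genes 10 were above in all 3 groups, and of 79 mitochondrial ribosomal protein genes 20 were. The summed level of the 7 fibroblast markers was lower in the libraries numbered 2 in all 3 groups, at 4952 and 4003 TPM with vehicle, 5050 and 4501 TPM with MASM7, and 4732 and 4053 TPM with MFI8. What set the numbered libraries apart, and the part of these markers in it, was not tested, and the labels name no batch. With vehicle the median cytosolic member stood at -0.068 and 0.068 around the vehicle mean, against 0.023 and 0.11 with MASM7 and -0.021 and 0.14 with MFI8, so that the groups overlapped. For mitochondrial members the vehicle libraries lay at 5.4e-06 and -5.4e-06, the MASM7 libraries at 0.039 and 0.043, and the MFI8 libraries at 0.036 and 0.059. The values of the vehicle libraries are mirror images because they are centred on their own mean. They are medians, and single members differed more between the vehicle libraries, for example Sars2 by -0.23 and Yars2 by 0.10. Of the 17 mitochondrial members, 8 were higher in the vehicle library numbered 2. In the median of all genes tested the 4 treated libraries also lay above both vehicle libraries, with 0.00024 and -0.00024 for vehicle and 0.0016 to 0.0072 for the treated ones.

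**Figure D3:**
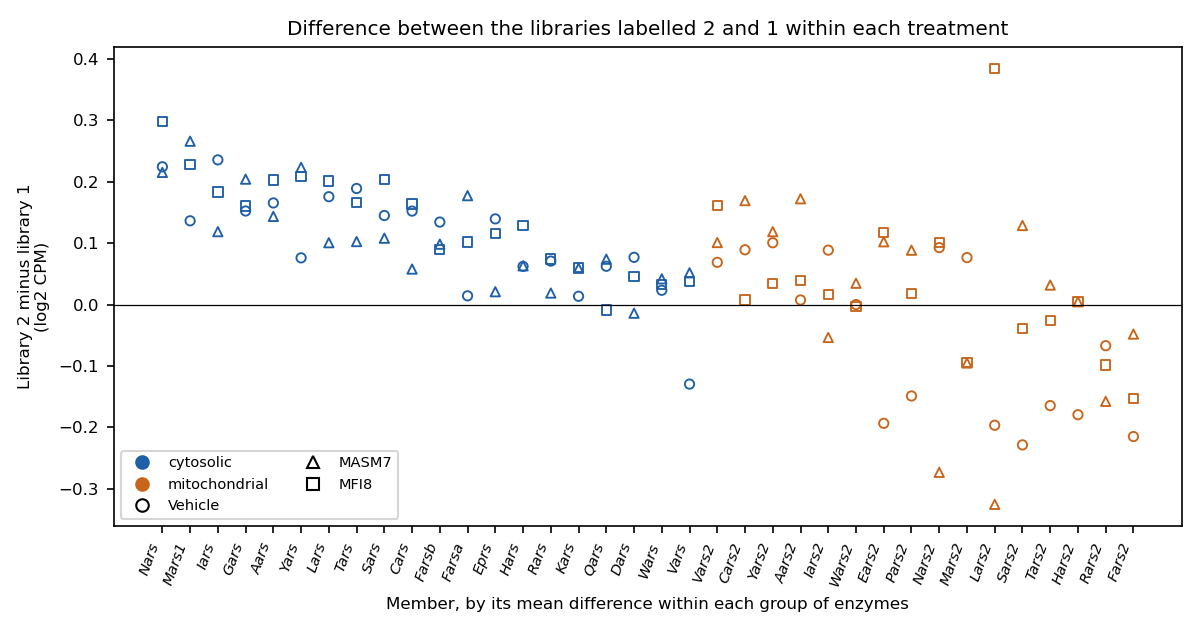
Difference in log2 CPM between the libraries numbered 2 and 1 of the same treatment for 36 synthetases, ordered by the mean within cytosolic (blue) and mitochondrial (orange) members, with the treatment given by the marker shape. For 17 of the 20 cytosolic members all 3 points lie above 0, whereas most mitochondrial members have points on both sides of it.

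**Figure D4:**
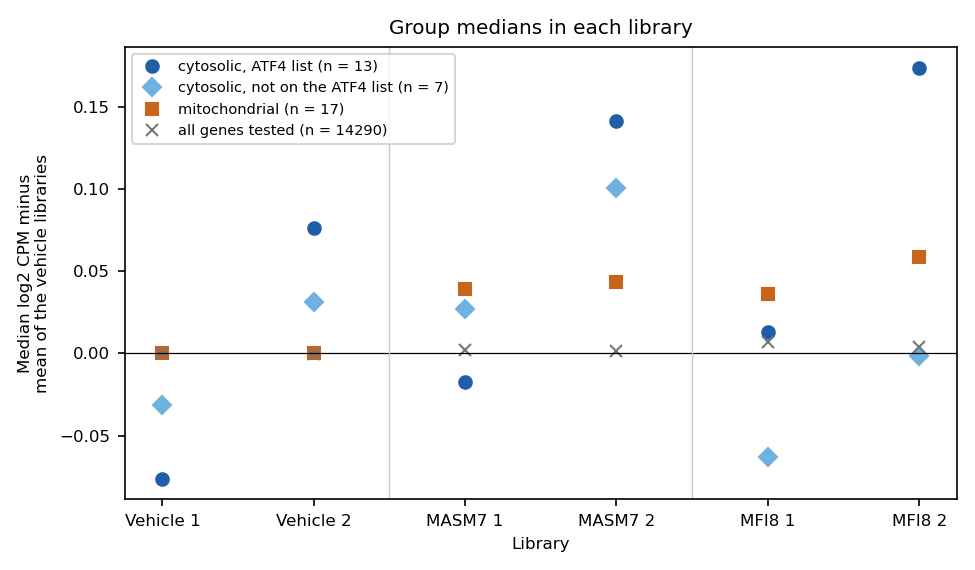
Median log2 CPM of each group of synthetases in each library, minus the mean of the 2 vehicle libraries, with all genes tested as crosses. The listed cytosolic members run from -0.076 and 0.076 with vehicle to 0.013 and 0.17 with MFI8, so that the libraries numbered 2 are above those numbered 1 in each treatment.

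Split by the multi-synthetase complex, the 8 cytosolic members inside it had a median log2 fold change of -0.0040 with MFI8 and 0.025 with MASM7. The 12 members outside it had 0.084 and 0.076. With MFI8, 4 of the 8 and 10 of the 12 were above 0, as were 7239 of the 14290 genes tested. Without the MFI8 library numbered 2 the MFI8 medians were -0.044 inside and 0.0055 outside, with 1 of the 8 and 6 of the 12 above 0. Without the vehicle library numbered 1 they were -0.046 and 0.024, with 1 and 9 above 0, and without the vehicle library numbered 2 the inside median was 0.048. The outside median was 0.17 without the MFI8 library numbered 1. With MASM7 the inside median was -0.044 without the vehicle library numbered 1 and -0.0098 without the MASM7 library numbered 2. Outside, these values were 0.026 and 0.034. The outside median was 0.15 without the MASM7 library numbered 1 and 0.14 without the vehicle library numbered 2. Inside, the median was 0.095 without the vehicle library numbered 2. Membership of the complex and of the ATF4 list go together in part, and neither split was tested. By structural class of the catalytic domain, class I members had medians of 0.045 and 0.051 and class II members 0.066 and 0.068 with MFI8 and MASM7.

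Partners of the synthetases in tRNA charging were taken as a list of 15 genes. Their median log2 fold change was 0.042 with MFI8, with 10 above 0, and -0.0034 with MASM7, with 7 above 0. Of the 14290 genes tested, 7239 and 7163 were above 0. Trnt1, which adds the CCA end that synthetases charge, was the 1 of the 15 at an unadjusted p under 0.05 against vehicle, where 4.65% of all genes were lower with MFI8. It had 86.1 and 91.4 CPM with vehicle and 80.7 and 80.4 CPM with MFI8, a log2 fold change of -0.14 (SE 0.062, edgeR adjusted p = 0.495). With MASM7 the largest values were -0.20 (SE 0.10) for Tarsl2, a threonyl-tRNA synthetase-like protein of the cytosol, 0.15 (SE 0.11) for Gatb of the mitochondrial glutamyl-tRNA amidotransferase, and 0.13 (SE 0.063) for the scaffold gene Aimp1. The mitochondrial ribosomal proteins, which use the charged mitochondrial tRNAs, had medians of -0.014 with MFI8 and 0.028 with MASM7 over 79 genes.

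The genes outside the synthetases whose log2 CPM followed the mean of a group most closely over the 6 libraries were found by Pearson correlation, as a description. For the cytosolic group these were 2310034G01Rik (r = 0.998, at 1.01 to 1.91 CPM), Snrnp200 (r = 0.988, at 468 to 506 CPM) and Psmd2 (r = 0.987, at 805 to 889 CPM). For the mitochondrial group they were Actb (r = 0.999, at 4177 to 5242 CPM), Gm1826 (r = 0.989, at 0.596 to 1.04 CPM) and Zbtb24 (r = 0.988, at 14.0 to 15.5 CPM). They were the highest of 14253 correlations over 6 points that share libraries and depth.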

How the data were processed

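RNA-seq libraries of WT MEFs were analysed from the deposited tables. Per the labels and methods, the authors trimmed reads with Trimmomatic, aligned them to GRCm38 (mm10) with STAR and counted reads on exons with featureCounts. The authors deposited raw counts and TPM per gene, and counts divided by size factors, which were not used. The strand setting and annotation release were not given in the sources used here.

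Counts were fitted in edgeR 4.0.16 (R 4.3.3) with TMM, filterByExpr, 1 coefficient per group and all 6 libraries, and tested by quasi-likelihood with Benjamini-Hochberg adjustment over 14290 genes at 0.05. CPM used TMM factors, and log2 CPM added a prior count of 2. SE was taken as log2 fold change over the root of F. With 2 libraries against 2, an exact permutation test cannot go below 0.333. The p-values set each difference against a spread estimated from all 6 libraries with information shared across genes. The fit was also run on simulated counts. Their changes were larger than those of the synthetases, and they held no difference between numbered libraries apart from depth. That run therefore cannot tell whether changes as small as those reported here would be found.

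Levels were compared in TPM. Coordinates, GC content and length came from GENCODE vM21, and shared sequence from BLAST 2.17.0 (at least 100 bases at 95% identity). Members given in full were those with an unadjusted p under 0.05 and the 3 highest and lowest of each group. Members and lists were chosen with earlier results of these data known. No outlier test was made, since groups hold 2 libraries. Alternatives were other scalings, filters and offsets for GC content and length, DESeq2 1.42.0, limma 3.58.1, 2 groups alone, a replicate block and each library left out. Of 4 symbols linked to rRNA planned beside Lars2, 0 had a match in the table. The groups include 1 mitochondrial member that is not reported here singly or drawn.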

Additional observations from a re-analysis of the deposited data

How the results depend on the processing

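Without the filter on low counts, 256, 127 and 168 genes had an adjusted p under 0.05 in edgeR for MFI8 against vehicle, MASM7 against vehicle and MFI8 against MASM7, in place of 0, with 1 cytosolic synthetase (Aars) for MFI8. In the same order the DESeq2 Wald test gave 49, 2 and 27 genes, limma gave 8, 14 and 13 on log2(TPM + 1) and 19, 18 and 19 on log2(TPM + 0.1), and edgeR on the 2 groups alone gave 0, 1 and 2, with no synthetase in any of these. Leaving out 1 library at a time gave 0 to 26, 0 to 2 and 0 to 24 genes and 0 synthetases. Why these counts moved was not tested.

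The libraries share the numbers 1 and 2 between groups, and no label says that a number marks a shared batch or day. The differences between numbered libraries correlated across 14290 genes with r = 0.19, 0.15 and 0.16 for vehicle and MASM7, vehicle and MFI8, and MASM7 and MFI8, with r = 0.51, 0.62 and 0.54 over the 7145 higher-expressed genes and 0.34, 0.46 and 0.19 over the 37 members. With the replicate block, 720, 554 and 439 genes had an adjusted p under 0.05 in edgeR, among them 2 cytosolic synthetases for MFI8 (Aars, Mars1), and 4 cytosolic (Farsa, Mars1, Sars, Vars) and 2 mitochondrial synthetases (Tars2, Vars2) for MASM7. With the replicate block and offsets for GC content and length together, 587, 155 and 695 genes did, with 2 cytosolic synthetases for MFI8 (Mars1, Tars), 1 for MASM7 (Farsa) and 3 between the compounds (Farsa, Kars, Rars). The offsets alone gave 0 genes, and cytosolic and mitochondrial medians of 0.033 and 0.024 with MFI8 and of 0.037 and 0.048 with MASM7, where their difference turned to -0.011.

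Leaving out 1 library at a time, the median log2 fold change with MFI8 ran from -0.023 to 0.14 for cytosolic and from 0.036 to 0.096 for mitochondrial members, and their difference from -0.10 to 0.087. With MASM7 the same ranges were 0.0092 to 0.11, 0.0083 to 0.052 and -0.042 to 0.10, and between the compounds -0.079 to 0.089, -0.021 to 0.017 and -0.087 to 0.072. The cytosolic median with MFI8 was below 0 without the MFI8 library numbered 2 (-0.023) and without the vehicle library numbered 1 (-0.0046). The mitochondrial median between the compounds was 0.023 with limma at a pseudocount of 1 and 0.024 at 0.1. In the libraries numbered 2 alone, an alternative chosen after seeing the data, the mitochondrial median with MFI8 was 0.14. The ratio of median levels was 9.54 with CPM over transcript length, 10.3 without Gars and Kars, and 11.8 to 12.4 with 1 library left out.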
